A study of Homo sapiens with 17 samples.

Results

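The naive PSC H3K4me1 landscape was examined at the regions that promoters contact. The members were the HindIII fragments without a bait that Promoter Capture Hi-C (PCHi-C) joined to a promoter bait on the same chromosome at up to 1 Mb in naive PSCs. Of 81606 naive interactions, 67673 met this rule, and they joined 11391 baits to 47037 fragments. These were 47037 of the 61866 fragments in the naive list and of the 88413 fragments listed in either cell type. Each contacted fragment was set against a window of the same length at the same distance on the other side of the same bait. A window was kept where it overlapped no fragment listed in naive PSCs. This left 49540 pairs and 38341 fragments (81.5%). The other 8696 fragments had no kept window. They held a mean H3K4me1 of -2.13 and -1.71 log2 RPM (reads of a 500 bp tile scaled to the depth of its library) in naive libraries 1 and 2, against -2.31 and -1.87 for the kept fragments.

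In PCHi-C, the restriction enzyme HindIII cuts crosslinked DNA, ends that were near each other in the nucleus are joined, and the joined pieces that contain a promoter are pulled out and sequenced. Naive PSCs came from NK2 H9, an established line of human embryonic origin, and were grown with the MEK inhibitor PD0325901 (1 µM), the GSK3 inhibitor CHIR99021 (1 µM), LIF (20 ng/ml) and the PKC inhibitor Go6983 (2 µM), and primed PSCs of the same line were grown in TeSR-E8, all in 5% O2. H3K4me1 was profiled by CUT&RUN, in which a nuclease tethered to an antibody releases the marked chromatin, in 2 naive and 3 primed libraries. The primed libraries served here to show which values were also found without the naive state. All libraries came from this line, so no value speaks for other lines.

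H3K4me1 is the monomethylation of lysine 4 of histone H3. It marks active and poised enhancers and the flanks of promoters, and the enzymes MLL3 and MLL4 deposit most of it at enhancers. An enhancer can lie far from the gene it acts on and is thought to reach the promoter through chromatin contacts, so the mark at contacted fragments shows which contacts end in chromatin of this kind. Naive PSCs resemble the epiblast before implantation and primed PSCs the epiblast after it, and they use different sets of enhancers.

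The sequences at the summit of the mark show what such ends looked like. Each is the middle 300 bases of the 500 bp tile with the highest mean naive H3K4me1 in a contacted fragment, on the plus strand of GRCh38 (hg38). For *TBX3*, *SOX2*, *TFAP2C* and *TET2* it comes from the most marked contacted fragment of the promoter, at chr12:115132101-115132400, chr3:181893101-181893400, chr20:56861101-56861400 and chr4:105206101-105206400. The last is from a fragment contacted by the *MT1G* and *MT1H* bait, at chr16:56861101-56861400, which is described further on among the fragments with the largest difference. All except the *TBX3* sequence were chosen after their values had been seen. Capitals mark a match to 1 of the 6 motifs that are spelled out further on. The *TBX3* sequence held 1 match, to the TFAP2 motif, and the other sequences held 0.
TBX3 contact: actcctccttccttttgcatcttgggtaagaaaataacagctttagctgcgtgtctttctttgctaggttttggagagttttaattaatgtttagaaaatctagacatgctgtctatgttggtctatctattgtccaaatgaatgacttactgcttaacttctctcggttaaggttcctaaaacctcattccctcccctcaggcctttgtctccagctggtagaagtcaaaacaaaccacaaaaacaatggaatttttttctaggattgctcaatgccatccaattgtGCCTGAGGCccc
SOX2 contact: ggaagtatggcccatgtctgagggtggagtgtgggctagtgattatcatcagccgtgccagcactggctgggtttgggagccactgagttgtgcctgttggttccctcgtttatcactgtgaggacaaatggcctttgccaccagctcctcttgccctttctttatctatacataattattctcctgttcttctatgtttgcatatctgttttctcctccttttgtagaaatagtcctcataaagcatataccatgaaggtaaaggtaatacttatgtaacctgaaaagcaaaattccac
TFAP2C contact: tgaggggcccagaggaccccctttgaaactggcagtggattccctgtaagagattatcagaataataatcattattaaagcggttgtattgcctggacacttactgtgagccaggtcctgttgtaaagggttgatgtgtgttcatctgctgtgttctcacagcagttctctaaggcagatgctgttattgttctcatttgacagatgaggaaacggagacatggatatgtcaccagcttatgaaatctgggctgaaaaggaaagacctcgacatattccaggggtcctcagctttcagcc
TET2 contact: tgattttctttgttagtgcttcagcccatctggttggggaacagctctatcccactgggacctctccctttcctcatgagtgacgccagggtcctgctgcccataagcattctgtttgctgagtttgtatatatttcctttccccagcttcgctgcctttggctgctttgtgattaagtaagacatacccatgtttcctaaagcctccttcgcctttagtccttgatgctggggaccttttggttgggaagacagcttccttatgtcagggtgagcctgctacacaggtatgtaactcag
MT1G and MT1H contact: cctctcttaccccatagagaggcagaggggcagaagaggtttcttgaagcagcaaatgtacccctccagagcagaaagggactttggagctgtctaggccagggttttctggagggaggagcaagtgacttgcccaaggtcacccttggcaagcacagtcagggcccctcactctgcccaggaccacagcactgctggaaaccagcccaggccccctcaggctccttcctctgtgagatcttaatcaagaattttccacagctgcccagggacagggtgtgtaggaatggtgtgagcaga
None of these fragments held an exon or a transcript start of a protein-coding gene. The *TET2* fragment lay in an intron of *TET2*, and the others lay outside protein-coding genes. Their GC content was 40.3%, 44%, 45.7%, 48.7% and 56.3%, with between 0 and 3 CpG each. The tile around the *TBX3* sequence stood at 1.34 and 1.15 log2 RPM in the naive libraries and at -1.15, -1.98 and -1.03 in the primed libraries, so the groups did not overlap there. The tile around the *TFAP2C* sequence stood at 1.39 and 1.42 in the naive and at 1.61, 0.48 and 1.10 in the primed libraries, where they did overlap. Both tiles were chosen for their naive level, which favours naive values above primed ones, so these values are only a description.

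Contacted fragments carried more H3K4me1 than their mirrored windows in every library. In naive library 1 the mean was -2.31 log2 RPM at contacted fragments and -2.66 at mirrored windows, an excess of 0.34. In naive library 2 the means were -1.87 and -2.07, an excess of 0.20. The 2 naive libraries thus gave 0.27 ± 0.10 (SD, n = 2). With 2 libraries no sign-flip test can give a p under 0.5, so no test of this mean was made. The libraries differed in depth. The whole reads behind the tiles could be recovered, and naive library 1 held 21.8 M reads with 21.2% of tiles empty, and naive library 2 held 6.74 M with 52.3% empty. An empty tile stands at 0.9 reads in the log2 values, which lies lower in a deeper library and stretches the log2 excess. The ratio of summed RPM with empty tiles at 0 was therefore computed as well, after the data had been seen. It was 1.24 and 1.22, or 1.23 ± 0.015 (SD, n = 2), and is used for the classes below.

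**Figure D1:**
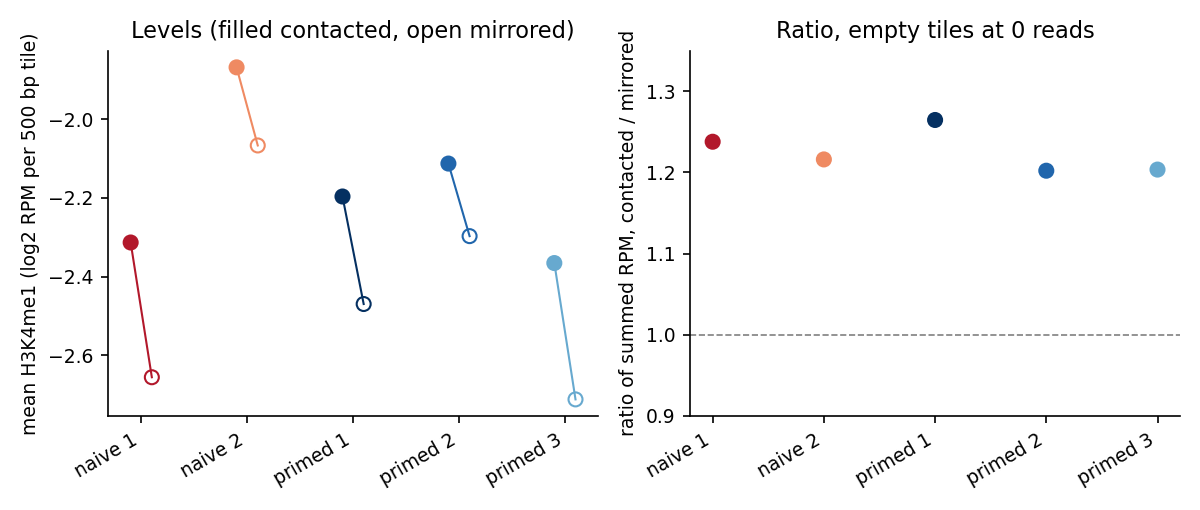
Mean H3K4me1 of 38341 contacted fragments (filled) and their mirrored windows (open) in log2 RPM per 500 bp tile in each library (left), and the ratio of summed RPM with empty tiles at 0 (right), where the dashed line marks equality. Contacted fragments lie above their mirrored windows in all 5 libraries, and the ratio ranges from 1.20 to 1.26.

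The excess was small beside the spread of single fragments, and many went the other way. The median difference was 0.32 in naive library 1 and 0.08 in naive library 2. In naive library 1, 58.3% of the fragments were higher than their mirrored windows and 41.6% lower, and in naive library 2 these shares were 56.3% and 42.8%. In both libraries alike, 47.8% were higher and 32.7% were lower. The middle 50% of the differences in naive library 1 spanned -0.76 to 1.44, and 90% of them lay between -2.63 and 3.37. A fragment was called marked where a tile stood above 0 log2 RPM in both naive libraries. This held for 17.3% of the contacted fragments and 12.9% of the mirrored windows. Among the 30155 fragments with 1 kept window, 12.8% were marked while the window was not, 9.10% had a marked window while the fragment was not, 3.76% had both and 74.4% neither. Most contacted fragments therefore held no marked tile. Marked fragments had a median of 2.5 marked tiles of 8.

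Tested fragment by fragment with limma and Benjamini-Hochberg adjustment, 8674 of 38341 contacted fragments (22.6%) were higher than their mirrored windows and 5221 (13.6%) were lower in naive PSCs. The median difference was 2.08 on the log2 scale among the higher and -1.96 among the lower fragments. Across fragments, the difference of the 2 naive libraries correlated with r = 0.86, which describes fragments of these libraries and not replicates of a condition. Fragments were not independent of each other, since 24241 (63.2%) adjoined another kept fragment, and the 38341 fell into 21517 unbroken runs. With 2 libraries, the spread that limma used came largely from all fragments together. Fragments called higher held a transcript start within 1000 bp in 26.7%, against 21.3% of those not called, and had a median of 10.3 CpG per kb against 7.97. Among fragments called lower it was the windows that had more of both. These windows held a start in 26.7% and a median of 11.8 CpG per kb, against 20.4% and 8.13 for the fragments.

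The mark peaked on the contacted fragment itself. At the middle of contacted fragments the mean was 0.396 and 0.393 RPM per tile in the naive libraries, against 0.313 and 0.317 at the middle of mirrored windows, which are ratios of 1.27 and 1.24. At 5 kb from the middle, towards the bait, the ratios were 1.15 and 1.15, and away from the bait they were 1.14 and 1.13. At 10 kb they were 1.09 and 1.08 towards the bait and 1.06 and 1.06 away from it. At 50 kb they were 1.12 and 1.10 on the bait side and 1.08 and 1.07 on the far side. In between they fell to 1.07 and 1.07 at 15 kb towards the bait and to 1.03 and 1.02 at 22 kb away from it. A broad but uneven difference thus surrounded the peak. The mirrored windows dipped at their own middle. The rule kept only windows without a listed fragment, and how far it shaped this dip was not tested.

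**Figure D2:**
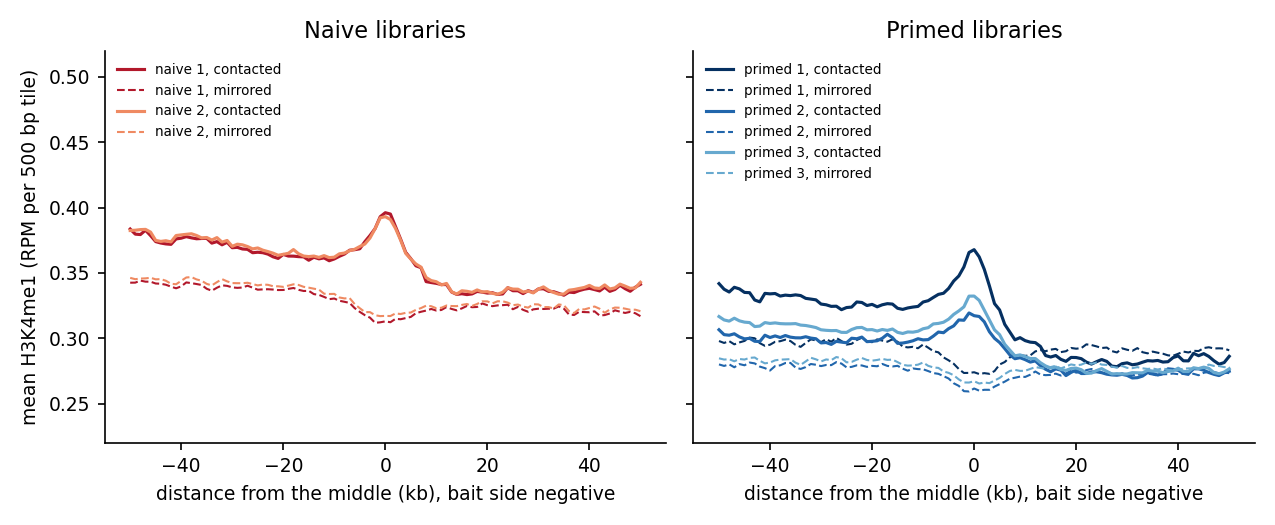
Mean H3K4me1 in RPM per 500 bp tile against the distance in kb from the middle of contacted fragments (solid) and mirrored windows (dashed), oriented so that the bait lies at negative distances, for naive (left) and primed (right) libraries; the vertical axis does not start at 0. In the naive libraries the solid lines peak at 0.396 and 0.393 and the dashed lines dip to 0.313 and 0.317 at the middle.

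The excess differed between classes of distance. Fragments at 50 to 100 kb (3156 interactions) had the largest ratio of the 5 classes, 1.496 in naive library 1 and 1.42 in naive library 2. It was 1.29 and 1.26 at 100 to 250 kb, 1.21 and 1.20 at 250 to 500 kb, and 1.16 and 1.16 at 500 to 1000 kb. At under 50 kb (2595 interactions) it was 1.17 and 1.15. The level itself was high on both sides there, at -1.64 log2 RPM for contacted and -1.93 for mirrored windows in naive library 1, against -2.70 and -2.96 at 500 to 1000 kb. On the log2 scale the nearest class exceeded the farthest by 0.06 ± 0.03 (SD, n = 2), and this small difference was -0.0034 with the ratio of summed RPM, so these 2 classes were not told apart. Of the interactions at under 50 kb, 52.7% had a kept window, against 84.4% at 500 to 1000 kb. In the primed libraries the ratio was also largest at 50 to 100 kb, at 1.58, 1.40 and 1.42. The log2 excess at 50 to 100 kb exceeded that at 500 to 1000 kb by 0.42 and 0.33 in the naive libraries. In the primed libraries it did so by 0.21, 0.17 and 0.17, with no overlap (two-sided exact permutation test, p = 0.1, adjusted 0.22 over 11 contrasts).

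The excess rose with the CHiCAGO score, which measures how far the reads of an interaction exceed the background for its distance. From a score of 5 to 6 to a score of 15 and over, the ratio rose from 1.21 to 1.55 in naive library 1 and from 1.19 to 1.51 in naive library 2. The log2 excess rose over the 5 classes without exception in each naive library, from 0.30 to 0.67 and from 0.18 to 0.40. The highest class exceeded the lowest by 0.30 ± 0.10 (SD, n = 2). In the primed libraries this difference was 0.29, 0.23 and 0.33, which overlapped the naive values of 0.37 and 0.23, so the rise was not particular to naive PSCs. Within each distance class the highest score class also stood above the lowest. At 100 to 250 kb, for example, the log2 excess went from 0.35 to 0.81 in naive library 1. At 500 to 1000 kb it went from 0.16 at a score of 5 to 6 to 0.55 at 10 to 15, and stood at 0.37 among the 263 interactions of 15 and over.

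Fragments contacted by more baits were more often marked, and so were their mirrored windows. Marked fragments made up 15.6% of the 26786 fragments with 1 bait, 20.2% with 2 and 26.6% of the 737 with 5 or more. For mirrored windows the shares were 12.1%, 13.9% and 18.5%. The ratio was 1.21 and 1.20 with 1 bait, 1.34 and 1.28 with 4 baits, and 1.30 and 1.22 with 5 or more. On the log2 scale, fragments with 5 or more baits exceeded those with 1 by 0.05 ± 0.07 (SD, n = 2), a difference smaller than its spread. The primed values were 0.09, 0.08 and 0.13, which overlapped the naive ones of 0.10 and 0.0030. As a difference of log2 ratios they were 0.10 and 0.03 in the naive and 0.22, 0.20 and 0.14 in the primed libraries. These did not overlap (two-sided exact permutation test, p = 0.1, adjusted 0.157). The 47 fragments with 10 or more baits had larger naive ratios, 1.49 and 1.53. The primed ratios were 1.596, 1.469 and 1.352, so the naive ratios lay within the primed range. Of these 47 fragments 12 (25.5%) were called higher and 0 lower, beside 22.6% and 13.6% of all fragments. Marked fragments made up 44.7% of them, against 22.5% of their windows. Their median length was 3801 bp, against 2420 bp over all fragments. A transcript start lay within 1000 bp of 61.7% of them, against 22.4% of all contacted fragments. Between 1 bait and 5 or more, fragments of 2 to 6 kb remove most of the difference in length. Among them, 28.0% were marked with 5 or more baits and 17.9% with 1, and their windows in 19.2% and 14.4%. The ratio was 1.20 and 1.12 with 5 or more baits and 1.19 and 1.17 with 1. Of the former 39.3% lay within 1000 bp of a transcript start, against 20.9% of the latter.

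**Figure D3:**
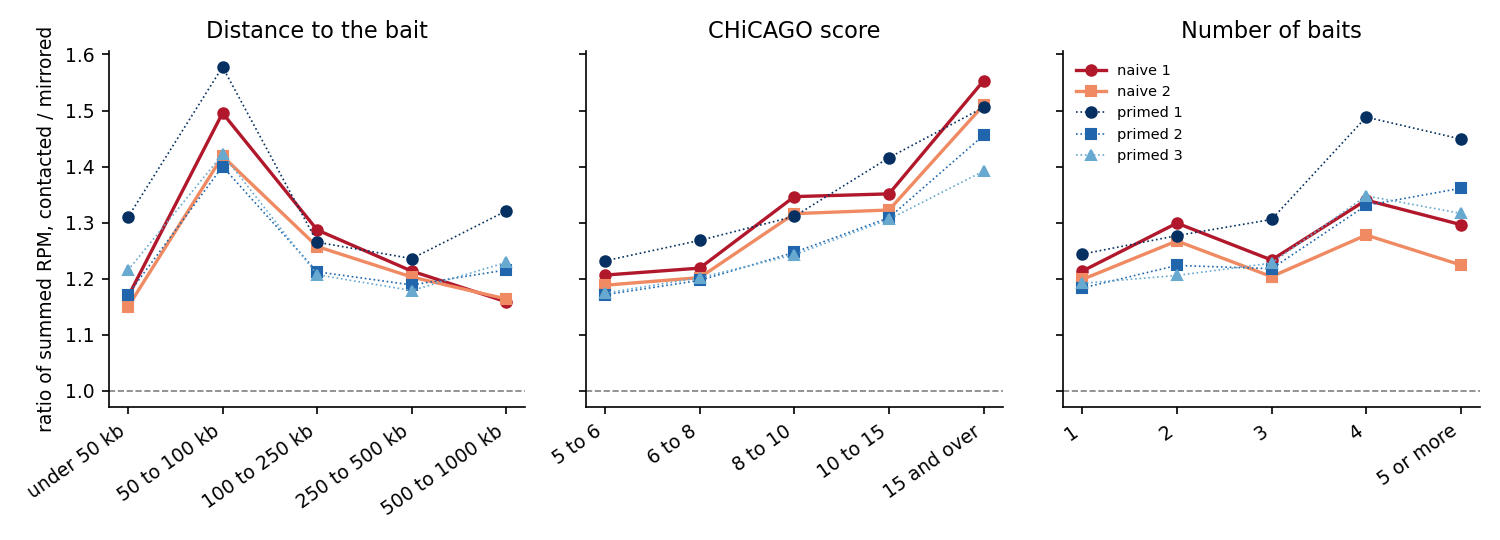
Ratio of summed RPM, contacted over mirrored, by distance to the bait, CHiCAGO score and number of baits, with 1 line per library; the vertical axis does not start at 0 and the dashed line marks equality. In the naive libraries the ratio is largest at 50 to 100 kb (1.496 and 1.42), rises with the score to 1.55 and 1.51, and is 1.21 and 1.20 with 1 bait and 1.30 and 1.22 with 5 or more.

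Annotation was unequal between the sides. Of the contacted fragments, 22.4% lay within 1000 bp of an annotated transcript start, against 18.7% of the windows, and the middle of 58.5% against 54.7% lay in a protein-coding gene. Where only the fragment held a start, the ratio was 1.43 and 1.40 in the naive libraries, and where only a window did, 1.04 and 1.03. Among the 23881 fragments with no start on either side it was 1.26 and 1.24, so the excess was also present without starts. Where neither middle lay in a protein-coding gene the ratio was 1.44 and 1.44, and where both did, 1.17 and 1.14. It was 1.37 and 1.36 where only the middle of the fragment did, and 1.16 and 1.14 where only that of the window did. GC content was nearly equal, with a median of 41.1% in contacted and 41.3% in mirrored windows. By chromosome the ratio was largest on chromosome 4, at 1.48 and 1.52, and near or under 1 on chromosomes 19 (1.00 and 1.00), 21 (0.962 and 0.945) and 22 (0.956 and 0.945), which held 525, 342 and 477 fragments. It was also low on chromosome 17, at 1.03 and 1.02 (1577 fragments), and on chromosome 10, at 1.04 and 1.03 (1648 fragments).

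Motifs of 6 kinds were searched as exact letters on both strands, namely CNAGGGGGC for CTCF, the factor that anchors many loops, TTGTNATGC for the joint site of the POU and SOX factors, ATGCAAAT for the octamer of the POU factors, GGGTGTGG for KLF factors, GCCTNAGGC for TFAP2 factors and ACATTCCA for TEAD factors. The POU and SOX motif ends in the letters that open the octamer, so matches of these may overlap. The CTCF motif was found in 7.27% of contacted fragments and 5.89% of windows, and the octamer in 21.2% and 23.9%. For the KLF motif the shares were 24.96% and 25.07%, yet the excess followed it in naive PSCs. Where only the fragment held the KLF motif, the ratio was 1.51 and 1.497 in the naive libraries, and where only the window did, 1.01 and 0.990. In the primed libraries these ratios were 1.23, 1.29 and 1.21, and 1.30, 1.15 and 1.20. The difference of the log2 ratios was 0.57 and 0.60 in the naive libraries and -0.08, 0.17 and 0.02 in the primed ones. The groups did not overlap, and the two-sided exact permutation test gave p = 0.1 (adjusted 0.157 over 11 such contrasts), the smallest p that 2 against 3 libraries allow. On the log2 excess the KLF difference was 0.58 and 0.39 in the naive and -0.06, 0.08 and 0.08 in the primed libraries (exact p = 0.1, adjusted 0.22). For CTCF the difference was 0.29 and 0.23 in the naive and 0.54, 0.76 and 0.48 in the primed libraries, again with no overlap (exact p = 0.1, adjusted 0.157). This separation depended on the scale, since on the log2 excess it was 0.46 and 0.24 against 0.43, 0.57 and 0.60, which overlapped (exact p = 0.3, adjusted 0.471). For TFAP2 it was 0.51 and 0.44 in the naive libraries, which overlapped the primed values of 0.28, 0.47 and 0.31 (exact p = 0.3, adjusted 0.33). For the POU and SOX motif it was -0.01 and -0.02 in the naive and 0.36, 0.17 and 0.28 in the primed libraries, with no overlap (exact p = 0.1, adjusted 0.157), and on the log2 excess the exact p was 0.2 (adjusted 0.367). For the octamer and TEAD motifs the exact p was 0.4 and 0.2 (adjusted 0.4 and 0.244), and on the log2 excess 0.6 and 0.1 (adjusted 0.66 and 0.22). A match is a description of letters and does not show that a factor was bound.

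**Figure D4:**
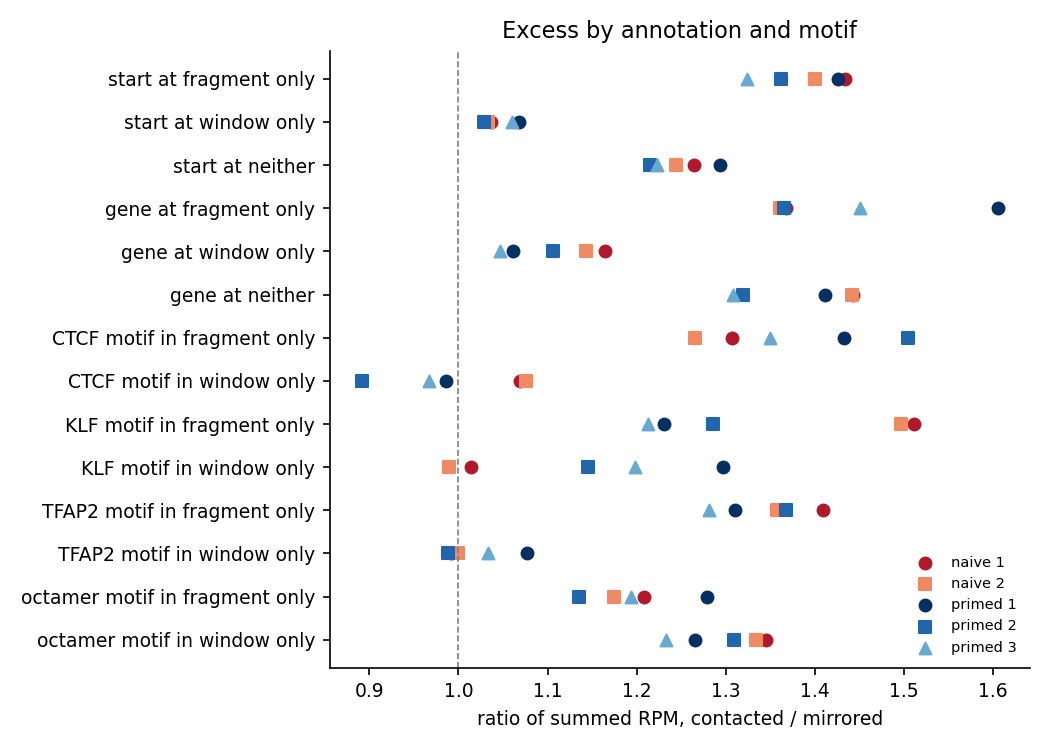
Ratio of summed RPM, contacted over mirrored, for pairs in which a transcript start, a protein-coding gene body or a motif lies on 1 side or on neither, with 1 point per library; the dashed line marks equality. The naive points stand at 1.51 and 1.497 for the KLF motif in the fragment and at 1.01 and 0.990 for the KLF motif in the window, while the primed points of both rows lie between 1.15 and 1.30.

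The same fragments were then measured in the primed libraries. Over all 38341 fragments, the log2 excess was 0.27, 0.18 and 0.35 in primed libraries 1 to 3, and the ratio of summed RPM 1.26, 1.20 and 1.20. The naive minus primed difference in log2 excess was 0.0024 (two-sided exact permutation test, p = 1). The mean excess over mirrored windows was thus of the same size in the 2 states for naive contacts, within the spread of these libraries, which does not show that they are equal. For the 15175 fragments not listed in primed PSCs, the ratio was 1.27 and 1.25 in the naive and 1.21, 1.18 and 1.17 in the primed libraries. The groups did not overlap (exact p = 0.1, the smallest possible). On the log2 scale they did, with an excess of 0.36 and 0.22 in the naive and 0.23, 0.17 and 0.30 in the primed libraries (exact p = 0.5). For the 23166 fragments also listed in primed PSCs it was 1.21 and 1.19 against 1.30, 1.21 and 1.22 (exact p = 0.5). Relative to the gene on the bait, fragments upstream had ratios of 1.30 and 1.28 in the naive libraries and downstream ones 1.25 and 1.23. The primed order was the opposite, 1.23, 1.16 and 1.17 upstream and 1.38, 1.30 and 1.29 downstream. The difference of the log2 ratios did not overlap between the states (exact p = 0.1, adjusted 0.157), nor did that of the log2 excess (exact p = 0.1, adjusted 0.22).

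Single fragments did differ between the states. With limma on the 5 libraries, 2598 of 38341 fragments (6.78%) had a larger excess in naive PSCs and 2643 (6.89%) had a larger excess in primed PSCs. Of the 2598, 1736 (66.8%) were also among the fragments called higher in naive PSCs, a comparison that shares the naive libraries. These counts depended on the libraries used. Without naive library 1, 0 and 0 fragments passed limma's adjusted threshold, although 3557 and 4040 had an unadjusted p under 0.05. Without naive library 2, 767 and 722 passed. In both cases 1 naive library was left, which was assumed to vary like the primed ones. Without primed library 1, 1101 and 1151, and without primed library 3, 634 and 638.

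Of 9 pluripotency promoters named whatever their values, 3 had pairs, namely *TBX3*, *SOX2* and *TFAP2C*. *DPPA5*, a gene of the early embryo expressed in naive PSCs, had 4 contacted fragments and no kept window. Their mean was 0.83 and 0.63 log2 RPM in the naive libraries and -2.27, -1.94 and -2.17 in the primed libraries, with no overlap. *NANOG*, *KLF4*, *KLF17*, *TFCP2L1* and *POU5F1* had 0 contacted fragments that met the rule. *TBX3*, a T-box factor of the naive network, had 9. They stood at -2.76 and -2.11 log2 RPM in naive libraries 1 and 2 and their windows at -3.55 and -2.53, an excess of 0.80 and 0.42. In the primed libraries the excess was -0.60, -0.53 and -0.59, so the groups did not overlap. On the log2 scale the contacted fragments themselves did overlap, at -2.88, -2.61 and -2.92 in the primed libraries, where the windows stood higher, at -2.28, -2.08 and -2.33. Such low levels depend on depth. Empty tiles stood at -4.60 and -2.91 in the naive and at -3.30, -3.13 and -4.89 in the primed libraries. The mean of all tiles was -3.06 and -2.30, and -2.57, -2.43 and -3.00. The fragments stood above this mean in both naive libraries and primed library 3, and below it in primed libraries 1 and 2. With GC within 2 points, 2 pairs were left and the naive excess was -0.07. The most marked *TBX3* fragment, chr12:115127262-115133166, lay 447 kb from the bait. It was chosen for its naive level, and it had an excess of 2.96 and 2.42 in the naive and -0.02, -0.75 and -0.06 in the primed libraries, given as a description.

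Over the naive pluripotency list, 7 of 18 genes had pairs, with 51 fragments. Of these, 23 (45.1%) were higher than their windows and 4 (7.84%) lower, beside 22.6% and 13.6% of all fragments. The median difference was 0.98, against 0.23 over all fragments. *TFAP2C*, a factor that opens naive enhancers, gave 10 of the 23. Its 19 fragments, spread over chr20:56799592-57052111, stood at -1.15 and -0.84 log2 RPM in the naive libraries and their windows at -2.95 and -2.30. The excess was 1.80 and 1.47 in the naive libraries and 1.88, 1.69 and 2.26 in the primed ones, which overlapped. *OOEP*, an oocyte-expressed gene beside *DPPA5*, had 7 fragments with a naive excess of 1.67 and 1.17 and a primed excess of 0.25, 0.50 and 0.86. With GC within 2 points it had 2 pairs and a naive excess of -0.46. *HORMAD1*, a meiotic chromosome protein, ran the other way. Its 8 fragments stood at -1.52 and -1.21 and the windows at -0.03 and 0.34, an excess of -1.49 and -1.56, and 4 of them were called lower. The primed excess was negative too, at -0.91, -0.57 and -1.01. The 2 pairs with a score of at least 10 had a mean excess of 0.55, the other direction, and without transcript starts the mean was -0.73. In the core pluripotency list, with 26 fragments of 4 genes, 7 (26.9%) were higher and 0 lower. *SOX2*, a core pluripotency factor, gave 6 of these 7. Its 18 fragments had a naive excess of 1.41 and 1.15 and a primed excess of 1.75, 0.69 and 1.75, which overlapped.

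Genes of DNA methylation had a large share of higher fragments. Of 22 fragments from 5 of 6 genes, 13 (59.1%) were higher and 0 lower, with a median difference of 1.61, and 4 (18.2%) had a larger excess in naive PSCs. Over all fragments these shares were 22.6%, 13.6% and 6.78%. *TET2*, an enzyme that oxidises methylcytosine, gave 10 of the 13. Its 14 fragments stood at -0.94 and -0.98 log2 RPM and the windows at -3.65 and -2.73, an excess of 2.71 and 1.75. The primed excess was 0.85, 0.54 and 1.17, below both naive values. As the 14 fragments share a bait and 13 lie on the same side of it, the share of this list rests largely on a single locus. *TET3* had 5 fragments, with an excess of 0.95 and 0.87 in the naive and -0.09, 0.05 and 1.24 in the primed libraries, which overlapped.

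The feedback genes of the ERK pathway, which naive medium blocks with a MEK inhibitor, split. Of 57 fragments from 7 genes, 10 (17.5%) were higher, 10 (17.5%) lower, 1 had a larger excess in naive and 9 (15.8%) a larger excess in primed PSCs, beside 22.6%, 13.6%, 6.78% and 6.89% of all fragments. *SPRY2*, a receptor tyrosine kinase inhibitor, had 8 of the 10 higher fragments, and its 19 fragments had an excess of 1.77 and 1.00. In the primed libraries the excess was 0.74, 0.67 and 1.07, which overlapped the naive values. *SPRY4*, of the same family, had 6 fragments at -2.52 and -2.11 log2 RPM with windows at -0.94 and -0.72, an excess of -1.57 and -1.39. In the primed libraries its excess was 1.76, 0.56 and 1.25. *ETV5*, an ETS factor downstream of ERK, had 9 fragments with an excess of -1.32 and -0.88 in the naive and 0.79, 0.63 and 0.80 in the primed libraries. For both genes the groups did not overlap and had opposite signs, and 4 fragments of each had a larger excess in primed PSCs.

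**Figure D5:**
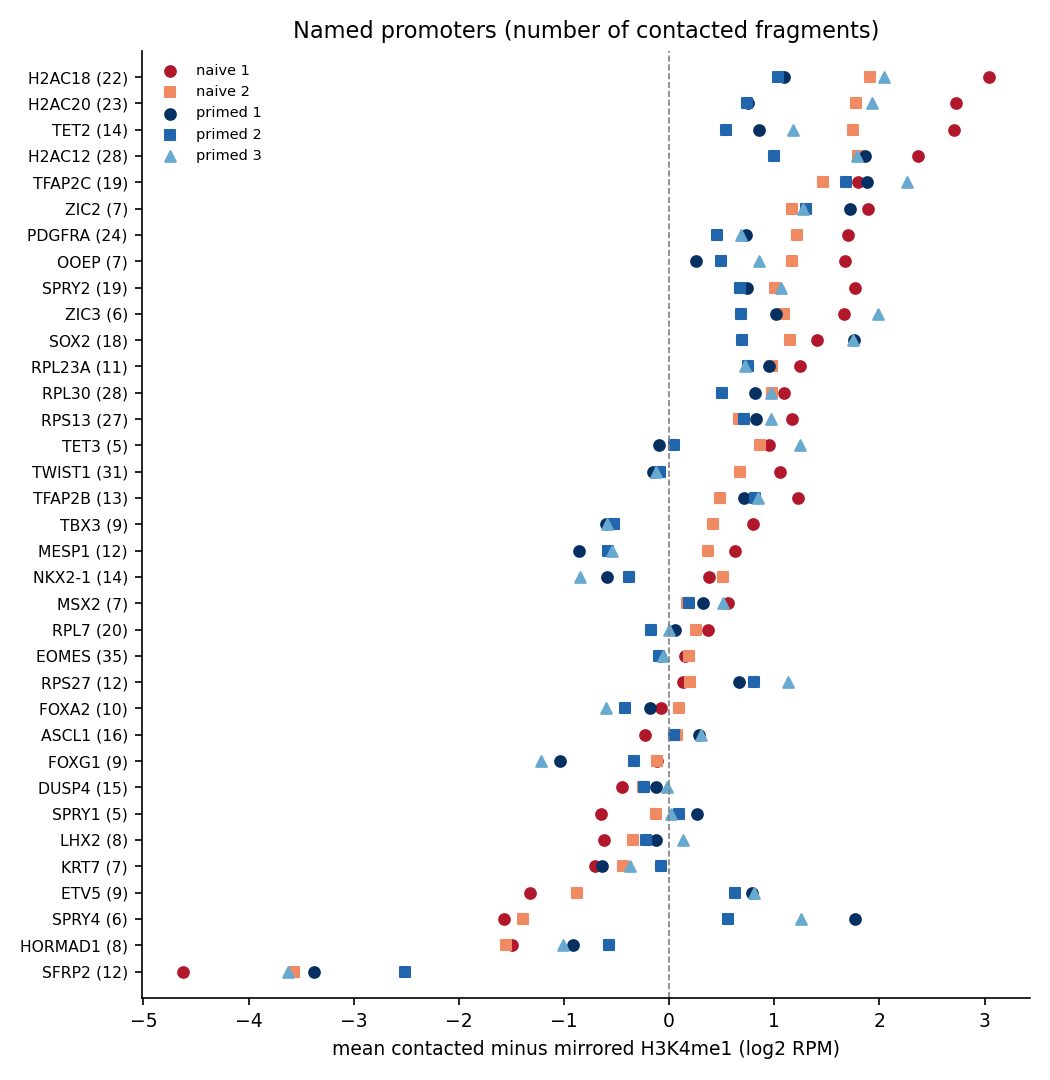
Mean contacted minus mirrored H3K4me1 (log2 RPM) of the promoters named by rule, with 1 point per library and the number of contacted fragments in parentheses; promoters on a shared bait are drawn once and the dashed line marks equality. *TET2* stands at 2.71 and 1.75 in the naive libraries and *SFRP2* at -4.63 and -3.57, while *SPRY4* and *ETV5* are negative in the naive and positive in the primed libraries.

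Among the lineage lists, the endoderm list had 22 of 75 fragments (29.3%) higher and 5 (6.67%) lower, and the mesoderm list 13 of 55 (23.6%) higher and 0 lower. *PDGFRA*, a receptor of primitive endoderm and mesoderm, gave 12 of the 22, with 24 fragments at an excess of 1.70 and 1.21. Its primed excess was also positive, at 0.73, 0.45 and 0.68. *EOMES*, a T-box factor of the primitive streak and trophoblast, had 35 fragments near their windows, at 0.15 and 0.19, and the 7 pairs with GC within 2 points had a mean of -0.18. *TWIST1*, a mesenchymal factor, had 31 fragments on 1 side of its bait, with an excess of 1.05 and 0.68 in the naive and -0.15, -0.09 and -0.12 in the primed libraries. *MESP1*, a factor of early mesoderm, had 12, at 0.62 and 0.37 against -0.86, -0.58 and -0.55. In the neural list 8 of 58 (13.8%) were higher and 7 (12.1%) lower, with a median of 0.09, and in the trophoblast list 8 of 32 (25%) and 3 (9.38%). *NKX2-1*, a factor of the ventral forebrain, had 14 fragments at 0.38 and 0.51 in the naive and -0.59, -0.38 and -0.84 in the primed libraries. Its contacted levels overlapped between the states, at -2.91 and -2.23 against -2.31, -2.56 and -2.77, while its windows stood at -3.29 and -2.74 against -1.72, -2.18 and -1.92. As for *TBX3*, these levels depend on library depth. The single pair with a score of at least 10 had a naive excess of -0.52. Over all fragments 22.6% were higher and 13.6% lower, so the higher share of the mesoderm list was close to that of all fragments. *TWIST1* gave 31 of the 55 mesoderm fragments, so that list rests largely on 1 side of a single bait.

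The primed and post-implantation list had 10 of 26 fragments (38.5%) higher and 12 (46.2%) lower, and the 12 lower ones were all of *SFRP2*, a secreted WNT antagonist. Over all fragments 22.6% were higher and 13.6% lower. Its 12 fragments lay together at chr4:154071412-154319265 and stood at -3.72 and -2.76 log2 RPM, while their windows at chr4:153257821-153505674, on the other side of the bait, stood at 0.90 and 0.82. The excess was -4.63 and -3.57 in the naive and -3.38, -2.51 and -3.62 in the primed libraries. As the fragments share a bait and a region, they are a single observation of that locus. *ZIC2* and *ZIC5*, zinc finger factors of primed PSCs that share a bait, had 7 fragments with an excess of 1.89 and 1.17 in the naive and 1.72, 1.30 and 1.27 in the primed libraries.

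Core and linker histones had the largest share of higher fragments among the 11 lists, 76 of 102 (74.5%), with 4 (3.92%) lower and a median of 1.71, beside 22.6% and 13.6% of all fragments and a median of 0.23. Histone genes lie in clusters, and several shared a bait and therefore the same fragments. The bait of *H2AC12* and *H2BC12* had 28 fragments at -0.47 and -0.40 log2 RPM and windows at -2.84 and -2.20. The excess was 2.37 and 1.80 in the naive and 1.86, 1.00 and 1.79 in the primed libraries, which overlapped. The bait of *H2AC20* and *H2BC21* had 23 fragments, of which 21 were higher, with an excess of 2.73 and 1.77 in the naive and 0.75, 0.74 and 1.93 in the primed libraries. Ribosomal protein genes had 66 of 191 fragments (34.6%) higher and 22 (11.5%) lower, with a median of 0.66. *RPL30* had 28 fragments at an excess of 1.09 and 0.98 in the naive and 0.82, 0.51 and 0.97 in the primed libraries. *RPS27* had 12 at a naive excess of 0.13 and 0.20, whose mean changed sign under 4 of the alternatives.

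The fragments with the largest difference, at most 1 per 100 kb and at least 1000 bp long, showed both ends of the range. They were named for their naive values, so these values and the differences from the primed libraries are given as a description, with no test. At chr16:56859982-56861681, contacted by the *MT1G* and *MT1H* bait of metallothionein genes at 194 kb, the naive libraries stood at 2.05 and 1.52 log2 RPM and the window at -3.67 and -2.91. The primed libraries stood at -2.57, -1.40 and -1.56 on this fragment, and the naive minus primed difference in excess was 3.49. The intergenic fragment chr12:25382774-25384839 was contacted by the bait of *BCAT1*, an enzyme of branched-chain amino acid breakdown, at 434 kb. It stood at 2.02 and 1.31 in the naive and at -1.35, -2.17 and -1.63 in the primed libraries, with a difference in excess of 3.97. The fragment chr4:38155337-38157886, contacted by the bait of *KLF3*, a KLF family repressor, at 508 kb, stood at 1.85 and 1.22 in the naive and at -1.91, -1.61 and -1.68 in the primed libraries (difference in excess 3.54). In an intron of *C1orf105*, chr1:172449699-172450975 was contacted by the bait of *FASLG*, a death receptor ligand, and stood at 1.58 and 1.16 in the naive and at -1.86, -0.91 and -1.86 in the primed libraries (difference in excess 3.38). At chr3:146071937-146072981, which overlaps an exon of *PLOD2*, a collagen lysyl hydroxylase, the excess was 6.34 and 3.85 in the naive and 3.83, 1.78 and 3.38 in the primed libraries.

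The largest differences in the other direction were windows with the mark beside a contacted fragment without it. At chr6:137699719-137700918, contacted by the bait of *TNFAIP3*, an inhibitor of NF-κB signalling, the fragment stood at -4.54 and -2.84 log2 RPM and its window at 1.80 and 1.09. In the primed libraries that window stood at -2.79, -2.15 and -2.81, and the naive minus primed difference in excess was -5.03. The fragment chr3:152574602-152579141 of *P2RY1*, a purinergic receptor, and chr14:91651845-91652917 of the *FBLN5* and *TC2N* bait had naive minus primed differences of -2.67 and -1.91. For the fragments of *SFRP2* at chr4:154090052-154091405 and of *STC1* at chr8:24258395-24260442, the naive minus primed differences were -0.49 and -0.84, and the primed windows were also above the primed fragments.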

How the data were processed

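H3K4me1 CUT&RUN was measured in 2 naive and 3 primed libraries, and PCHi-C in 2 replicates per cell type. Per the labels and the study's methods, the authors mapped PCHi-C with HiCUP on GRCh38 and combined the replicates in CHiCAGO. Each deposited interaction has a score of at least 5 and a combined read number. The CUT&RUN reads went through Trim Galore 0.5.0 and Bowtie2 2.3.2 per the submitters' processing notes, and the authors deposited log2 RPM per 500 bp tile from SeqMonk. The study's quantitation left out regions of outlying coverage; whether this holds for these tiles is not given in the sources used here. The deposited log2 values gave whole reads in 100% of filled tiles (tolerance 0.01 reads), and library totals of 6.74 to 26.6 M reads. Hi-C and NANOG, SOX2 and input ChIP-seq libraries were not used here.

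A window's value was the overlap-weighted mean of its tiles, and a fragment with several windows was compared with their mean. Distance and score classes used interactions, and other classes used fragments. Listed fragment ends matched HindIII sites of hg38 in 100% of cases. Annotation came from GENCODE release 44, and a bait was given the genes whose transcript start or the 1000 bp upstream of it overlapped it. Differences were fitted with limma 3.58.1 (R 4.3.3, eBayes with trend) and adjusted by the Benjamini-Hochberg method over all 38341 fragments at 0.05, after a check on simulated data. Means of libraries were compared by two-sided exact permutation tests. Python 3.11.15, numpy 2.4.6, pandas 2.3.3 and scipy 1.17.1 were used. The methods call the CUT&RUN replicates biological, but the sources do not say whether they came from separate cultures, so p-values measure the spread between these libraries, which may be technical. No pairing of naive and primed libraries was assumed. Same-numbered ones deviated with correlations of 0.02 and 0.19, which cannot decide this, since the deviations of the 2 naive libraries are exact opposites.

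The rule named up to 5 genes per list with the most contacted fragments (at least 5), a set of always named pluripotency genes, and the 5 fragments with the largest difference in each direction. Members, lists and rules were chosen with earlier results of these data known. Alternatives changed the window value, the choice of windows, the score and read minimum, GC and transcript start matching, the limma settings and the libraries. The ratio of summed RPM, the class contrasts between states, on both scales, and most of the printed sequences were added after seeing the data.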

Additional observations from a re-analysis of the deposited data

Results flagged for a closer look

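The excess over mirrored windows differed between naive and primed libraries at single fragments by limma's test of the difference itself. It was larger in naive PSCs at 2598 fragments and larger in primed PSCs at 2643. Among the named fragments with this difference, the naive minus primed excess was 3.38 at the *FASLG* contact, 3.49 at the *MT1G* and *MT1H* contact, 3.97 at the *BCAT1* contact and 3.54 at the *KLF3* contact. It was -5.03 at the *TNFAIP3* contact, -2.67 at the *P2RY1* contact and -1.91 at the *FBLN5* and *TC2N* contact. These fragments were chosen for their naive values, which the difference reuses. That choice favoured passing the threshold, so the values are descriptions and not results of a test. Without naive library 1, which leaves 1 naive library, no fragment passed limma's adjusted threshold (3557 and 4040 at an unadjusted p under 0.05).

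At 8 of the 38 named promoters, some of which share a bait, every naive library had the opposite sign of every primed library. This difference was not tested for the promoter means. How often the pattern occurs over all baits was not counted, so the number 8 cannot be judged against it. The naive minus primed mean excess was -1.84 for *ETV5*, -2.67 for *SPRY4* and -0.51 for *SPRY1*, of the ERK feedback list. It was 1.18 for *TBX3*, 0.99 for *TWIST1*, 1.16 for *MESP1*, 1.05 for *NKX2-1* and 0.25 for *EOMES*. A positive value need not mean more of the mark at the contacts. The *EOMES* fragments stood lower in the naive libraries (-3.19 and -2.43) than in the primed ones (-2.16, -2.38 and -2.36). Its windows did so too (-3.33 and -2.62 against -2.07, -2.28 and -2.30). For *TWIST1* and *MESP1* the naive fragments stood above the primed ones, for *TWIST1* by little (-2.50 against -2.52 at the nearest). All these levels depend on library depth, and their differences between the states were not tested.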

How the results depend on the processing

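The contacted minus mirrored difference in naive PSCs (0.27) was positive under every alternative run. It ranged from 0.20 to 0.34 when a naive library was left out and was 0.42 at a score of at least 10. The rise with score was positive in all alternatives run, with 0.23 to 0.37 when a library was left out. The nearest minus farthest distance class (0.06) was 0.04 to 0.08 without a library, 0.022 with the linear mean, 0.11 with GC within 2 points, 0.011 at a score of at least 7, -0.061 at a score of at least 10 and -0.0034 with the ratio of summed RPM. Fragments with 5 or more baits minus 1 (0.05) gave 0.0030 to 0.10 without a library and -0.033 at a score of at least 7. The naive minus primed difference (0.0024) changed sign with the whole HindIII fragment (-0.0017), no transcript start (-0.0081), at least 10 reads (-7.954e-05) and values divided by the SD over mirrored windows (-0.029), and ranged from -0.070 to 0.074 with a library left out. The causes were not tested.

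Fragments called higher and lower (8674 and 5221 of 38341) numbered 5453 and 3166 of the 25714 tested with no transcript start. With GC within 2 points they numbered 2644 and 1424 of 10683. At a score of at least 7 they numbered 4029 and 2225 of 16860, and at a score of at least 10, 1662 and 808 of 6304. Those larger in naive or primed PSCs (2598 and 2643) numbered 1523 and 1643, 858 and 766, 1147 and 1189, and 381 and 388 under the same alternatives, each of which tested fewer fragments. With a library left out they ranged from 0 to 2474 and from 0 to 2875. With the replicate block they numbered 2769 and 2522, and the naive minus primed difference was 0.04. Same-numbered libraries deviated with correlations of 0.02 and 0.19. The deviations of the 2 naive libraries are exact opposites, so these correlations cannot decide whether libraries were paired. For single named fragments, the state difference of the *SFRP2* contact (-0.49) ranged from -1.24 without naive library 2 to 0.26 without naive library 1 and was 0.03 without primed library 2, and that of the *STC1* contact (-0.84) ranged from -1.96 to 0.29, without the same naive libraries. Of 365 values of 38 named promoters under alternatives, 88 moved by more than the spread of the naive libraries and 21, from 13 promoters, had the other sign. Of the other state differences of named fragments, 145 kept their direction and side of the threshold, 15 were no longer past it and 1 newly passed it.

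With 2 naive libraries, one of 6.74 M reads with 52.3% of tiles empty, small differences at single fragments were not detectable. The interactions are 1 combined list, so no error of the list itself can be given.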
